A study of Mus musculus with 21 samples.

Results

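The microRNAs described here belong to the run from miR-379 to miR-410 in the imprinted Dlk1-Dio3 locus of the mouse, taken by 34 microRNA numbers. They were chosen by name: each line of the deposited table that names a mature or star form of one of the 34 microRNA numbers was taken, and hairpin lines were set aside. Lines of miR-1193, miR-1197, miR-654 and miR-3072, which lie in or near the same span, are not among these numbers and are counted separately at the end. This gave 67 members out of 1445 microRNA lines, or out of 886 mature and star lines. For 33 of the numbers the table holds a form from each arm of the hairpin, and miR-453 has a single line. The asterisk marks a star form as the table does, and unsuffixed names were assigned to an arm by the usual microRNA nomenclature.

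The series followed small RNA along the route of postnatal neurogenesis in CD1 mice, from the subventricular zone (SVZ) beside the lateral ventricles through the rostral migratory stream (RMS) to the olfactory bulb (OB). Its groups were dissected dorsal SVZ and lateral SVZ at postnatal day 1 (P1) and at P6, with 3 libraries each, OB at P15 and at P28, with 3 libraries each, RMS at P28 with 2 libraries and RMS at P15 with 1 library. No genotype or treatment other than the strain is given, and the labels do not state how many animals went into a library. Nothing says that the replicates came from different animals, and the p-values measure only the spread between these samples, which may be technical.

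In the mouse these microRNAs are expressed from the maternally inherited chromosome, as a long precursor that is cut into many hairpins, and they are best known from brain and embryo. Members such as miR-134, miR-329 and miR-381 are known for their part in the activity-dependent growth of dendrites, and miR-134 for limiting the size of dendritic spines through Limk1. Members of the miR-376 family are textbook substrates of A-to-I editing, which can change a base within the seed, the stretch near the 5′ end that pairs with target messages.

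The sequences that the results turn on are given 5′ to 3′ in lower case with the seed, bases 2 to 8, in capitals, from RefSeq mature microRNAs of the GRCm38.p6 annotation, where 63 of the 67 members had an entry. Entries for miR-376c, miR-487b, miR-485 and miR-539-3p were not found. The first set holds 8 of the most abundant members, whose seeds all differ:
miR-495: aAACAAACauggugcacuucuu
miR-543: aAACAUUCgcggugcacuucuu
miR-323-3p: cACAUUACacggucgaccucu
miR-541: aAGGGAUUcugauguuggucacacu
miR-409-3p: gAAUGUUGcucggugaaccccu
miR-666-3p: gGCUGCAGcgugaucgccugcu
miR-381: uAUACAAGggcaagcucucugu
miR-382: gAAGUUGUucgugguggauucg
miR-495 and miR-543 differ at 4 of 22 compared bases, 2 of them in the seed.

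The second set holds hairpins whose arms are compared. The arm forms of miR-154 and of miR-376b are shown with miR-376a, because miR-376a and miR-376b differ at 3 of 21 bases, 1 of them in the seed, and such near-identical members may share reads:
miR-154: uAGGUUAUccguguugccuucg
miR-154*: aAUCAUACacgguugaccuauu
miR-376b*: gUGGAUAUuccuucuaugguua
miR-376b: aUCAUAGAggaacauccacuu
miR-376a: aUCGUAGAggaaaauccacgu

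The third set holds the pair of neighbours that share a seed in spite of different 5′ arms, and members with large differences between the walls or ages:
miR-379: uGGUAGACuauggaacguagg
miR-379*: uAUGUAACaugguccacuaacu
miR-411: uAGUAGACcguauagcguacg
miR-411*: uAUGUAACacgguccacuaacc
miR-539-5p: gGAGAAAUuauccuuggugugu
miR-544-3p: aUUCUGCAuuuuuagcaagcuc
miR-134: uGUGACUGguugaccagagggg
miR-410: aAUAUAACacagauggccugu
miR-379* and miR-411* differ at 2 of 22 bases and at 0 of the seed. Shared seeds were otherwise found for miR-376b* with miR-376c*, miR-494* with miR-410*, and miR-453 with miR-496*. All other members with a sequence had a seed found in no second member, so the subcluster carries many seeds rather than copies of a few. miR-376b* and miR-376c* are nearly identical outside the seed too and may share reads. So may miR-300 and miR-381, which differ at 3 of 22 bases, 1 of them in the seed.

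The table gives a normalized score without a unit, rounded to whole numbers, and the read depth behind it is unknown. MicroRNAs held 67.0% to 81.6% of a library's total score and tRNA lines 5.14% to 17.2%. Over the 807 tested microRNA lines, the correlation between libraries within a group (r on the log2 scale) was 0.946 to 0.973. A line was tested where its score was at least 10 in at least 3 of the 21 libraries. Of the members, 57 passed this filter and 10 did not, none of which exceeded a score of 13 in any library: miR-453, miR-494*, miR-495*, miR-496*, miR-487b*, miR-539-3p, miR-668*, miR-679-5p, miR-679-3p and miR-758*. The counts of passing members therefore describe the better expressed ones, and a low member that reached the minimum in 1 group had to differ between groups. Among all 67 members, 44 were above 0 in every library, 18 had a mean score over 1000, 18 lay between 100 and 1000, and 31 lay under 100. Within groups the median coefficient of variation was 16.5% for tested members over 1000, 24.1% between 100 and 1000 and 44.8% under 100, so small differences of low members could not be detected.

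Summed over its members, the subcluster was lowest in dorsal SVZ at P1 and highest in lateral SVZ at P6. It held 0.818% to 1.14% of the mature microRNA score in dorsal SVZ at P1 and 2.64% to 3.68% in lateral SVZ at P1. At P6 it held 1.81% to 2.47% in dorsal and 4.40% to 5.22% in lateral SVZ. The 2 walls did not overlap at either age, and at P6 each wall lay above its own level at P1.

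RMS held 3.33% at P15 and 3.30% to 3.35% at P28, OB 3.17% to 3.68% at P15 and 2.43% to 2.84% at P28. The RMS libraries thus fell inside the range of OB at P15, and OB at P28 lay below both. The largest single contributor, miR-487b, made up 11.5% to 29.0% of the sum, and the 12 most abundant members made up 67.6% to 83.4%. Without miR-487b the mean shares were 0.806% ± 0.145 (SD, n = 3) in dorsal and 2.82% ± 0.431 (SD, n = 3) in lateral SVZ at P1, and 1.53% ± 0.302 (SD, n = 3) and 3.69% ± 0.221 (SD, n = 3) at P6, so the order of the walls did not rest on it.

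**Figure D1:**
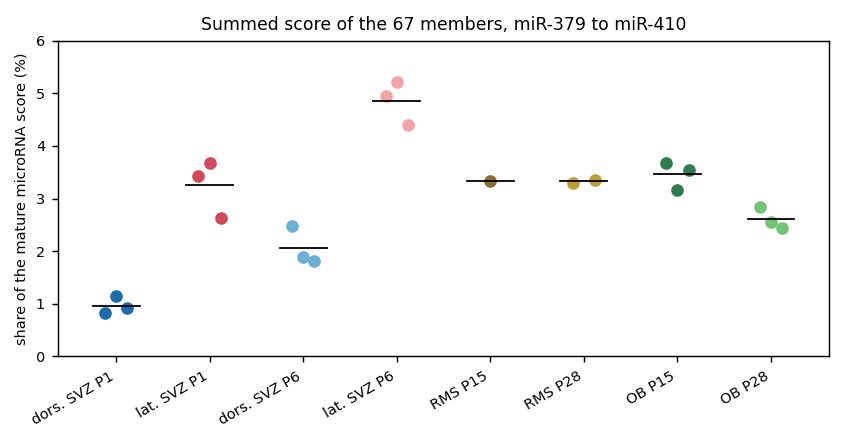
Share of the mature microRNA score (vertical axis, %) held by the 67 members in each library (points) of the 8 groups, with the group mean as a line. Dorsal SVZ at P1 lies lowest, at 0.818% to 1.14%, and lateral SVZ at P6 highest, at 4.40% to 5.22%.

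Most single members had their lowest and their highest group mean where the sum had them, but many peaked elsewhere. By group mean, 51 of the 57 tested members (89.5%) were lowest in dorsal SVZ at P1, against 33.1% of the 523 other tested mature and star lines. The highest mean was in lateral SVZ at P6 for 33 members (57.9%), against 16.4% of the other lines. It was in OB at P28 for 10 members (17.5%), against 39.4% of the other lines. The remaining members peaked in lateral SVZ at P1 (6), OB at P15 (5) or RMS at P28 (3). These shares are descriptions without a test.

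**Figure D2:**
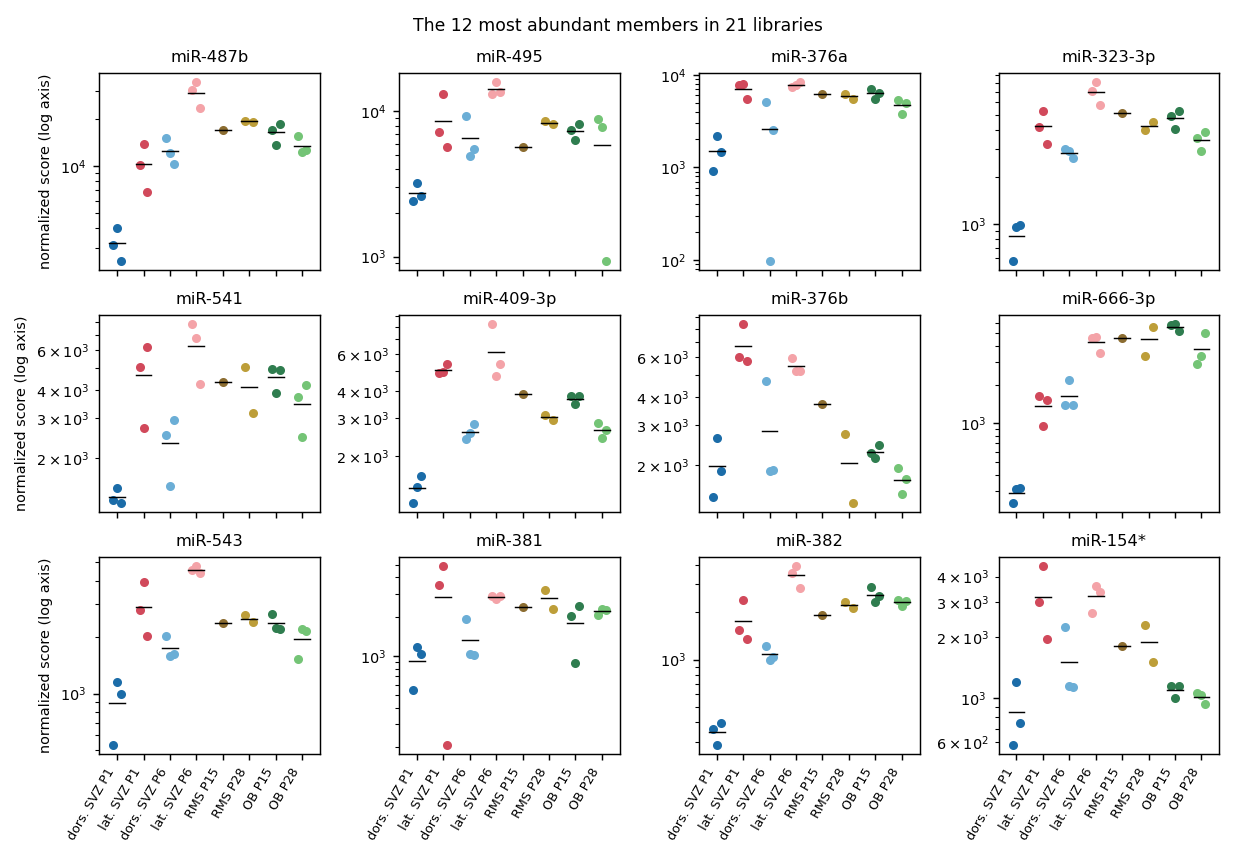
Normalized score (vertical axes, log scale) of the 12 members with the highest mean score, in each of the 21 libraries (points) by group, with the group mean as a line. Dorsal SVZ at P1 is low in most panels, while miR-376a at P6 (98), miR-381 at P1 (209) and miR-495 in OB at P28 (940) each have a single library far below its group.

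The first comparison asked whether the walls of the SVZ, which produce different kinds of neurons, differ in these microRNAs. At P1, 49 of the 57 tested members were lower in dorsal than in lateral SVZ, 0 were higher and 8 did not pass an adjusted p of 0.05 (limma, Benjamini-Hochberg). Over all tested lines 22.4% passed, 20.7% lower and 1.73% higher. The median log2 difference of the members was -2.29, against -0.41 for all tested lines. At P6, 39 were lower, 0 higher and 18 did not pass, where 20.3% of all lines passed, 17.6% lower and 2.73% higher. The median was -1.61 against -0.26. Of these, 36 members passed at both ages, and miR-134*, miR-541* and miR-667* passed at P6 only, while no member passed the test of the difference between ages. With both ages combined, 53 were lower, 0 higher and 4 did not pass, where 30.6% of all lines passed, 26.9% lower and 3.72% higher. The median was -1.97 against -0.30. Relative to the median microRNA of a library 49 members were lower and 0 higher over both ages, with a median of -1.45 against 0.22 for all lines. In that scaling 52.9% of the passing lines of the whole table were higher in dorsal SVZ, against 12.1% on the deposited scale.

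The libraries themselves separated. At P1 all 3 dorsal libraries lay below all 3 lateral ones for 50 of 57 members, against 23.9% of all tested lines, and at P6 for 49, against 29.2%. All 6 dorsal libraries lay below all 6 lateral ones for 22 members, against 8.43% of all lines. The lower level was seen at each level of expression: at P1 the median was -1.86 for the 18 tested members over 1000 (other mature and star lines -0.09), -2.45 for the 18 between 100 and 1000 (-0.49), and -2.35 for the 21 under 100 (-0.33).

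Among the abundant members, miR-487b scored 3115, 4025 and 2488 in dorsal and 10088, 13854 and 6808 in lateral SVZ at P1. At P6 it scored 15168, 12122 and 10254 in dorsal and 30279, 34224 and 23284 in lateral SVZ. The walls did not overlap at either age, and dorsal SVZ at P6 overlapped lateral SVZ at P1. It was 3.12-fold lower in dorsal SVZ at P1 (log2 difference -1.64 ± 0.24 SE, adjusted p = 1.75e-05, limma) and 2.34-fold lower at P6 (-1.23 ± 0.24 SE, adjusted p = 6.85e-04, limma).

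miR-495 scored 2410, 3199 and 2604 in dorsal and 7230, 13090 and 5661 in lateral SVZ at P1, and 9321, 4938 and 5538 against 13119, 15912 and 13552 at P6. The walls did not overlap at either age, but the test was passed at P1 (log2 difference -1.58 ± 0.52 SE, adjusted p = 0.0306, limma) and not at P6 (-1.16 ± 0.52 SE, adjusted p = 0.132, limma). The call at P1 was lost in 10 of 18 alternatives, among them TMM factors (adjusted p = 0.095), values relative to the median microRNA (0.20) and the analyses without dorsal SVZ P1 replicate 1 or 3 or lateral SVZ P1 replicate 1 or 2 (0.0536 to 0.174). From P1 to P6 its log2 difference was 1.22 ± 0.52 SE in dorsal and 0.80 ± 0.52 SE in lateral SVZ, and neither passed.

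miR-323-3p scored 581, 951 and 981 in dorsal against 4177, 5263 and 3241 in lateral SVZ at P1. At P6 it scored 2994, 2927 and 2628 against 7123, 8060 and 5763. All dorsal libraries of both ages stayed below all lateral libraries, and the member was 5.08-fold lower at P1 and 2.43-fold lower at P6 (adjusted p = 9.41e-08 and 3.13e-04, limma).

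miR-409-3p and miR-382 also kept all 6 dorsal libraries below all 6 lateral ones. miR-409-3p ran from 1209 to 1615 in dorsal and from 4875 to 5397 in lateral SVZ at P1, and was 3.60-fold lower (adjusted p = 5.04e-07, limma). miR-382 ran from 288 to 395 and from 1357 to 2370, and was 4.92-fold lower (adjusted p = 9.41e-08, limma). At P6 the differences were 2.29-fold and 3.15-fold, both past the threshold.

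miR-541, miR-543, miR-666-3p, miR-376b and both arms of miR-154 were lower in dorsal SVZ at both ages, by 3.27-fold, 3.30-fold, 4.64-fold, 3.43-fold, 3.50-fold (miR-154) and 3.69-fold (miR-154*) at P1. At P6 the same members were 2.72-fold, 2.63-fold, 2.63-fold, 2.13-fold, 3.04-fold and 2.23-fold lower. The call at P6 was lost without dorsal SVZ P6 replicate 2 or 3 for miR-376b (adjusted p = 0.0782 and 0.0987) and for miR-154* (0.053 and 0.0677). Relative to the median microRNA it was lost for miR-541 and miR-666-3p (adjusted p = 0.0526 each) and for miR-376b (0.0601). Of 18 alternatives at P6, 7 lost the call for miR-376b (adjusted p up to 0.35, limma) and 5 that for miR-154* (up to 0.37). The call was lost in 3 for miR-541 and in 2 for miR-666-3p. miR-411, next to miR-379 at the start of the run, scored 343, 318 and 425 in dorsal and 1888, 2753 and 1756 in lateral SVZ at P1, and 364 to 497 against 1850 to 2518 at P6. Its 2 walls lay far apart, and it had the smallest adjusted p of the members over both ages (log2 difference -2.42 ± 0.17 SE, adjusted p = 2.33e-10, limma).

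Among members with a mean score of at least 50 in lateral SVZ, the largest fold differences at P1 belonged to miR-539-5p, miR-544-3p and miR-411*. Under that level, miR-323-5p, miR-381*, miR-666-5p and miR-377* had estimates between those of miR-544-3p and miR-411*. miR-539-5p scored 13, 37 and 5 in dorsal and 186, 173 and 115 in lateral SVZ, 10.6-fold lower (log2 difference -3.40 ± 0.49 SE, adjusted p = 1.23e-05, limma). miR-544-3p scored 28, 60 and 56 against 481, 780 and 274, 10.1-fold lower (-3.33 ± 0.41 SE, adjusted p = 1.93e-06, limma). miR-411* scored 41, 60 and 52 against 368, 537 and 286, 7.49-fold lower (-2.90 ± 0.29 SE, adjusted p = 1.00e-07, limma). None of the 3 overlapped between the walls at P1.

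At P6 the largest differences were those of miR-541* (0, 19 and 13 in dorsal, 83, 154 and 42 in lateral SVZ), miR-323-5p (2, 24 and 6 against 50, 79 and 61) and miR-376a (5124, 98 and 2517 against 7300, 7802 and 8328). The walls did not overlap for these, but miR-541* and miR-323-5p stood close to 0 in single dorsal libraries, where the log2 scale is steep. The size for miR-376a, 7.19-fold (log2 difference -2.85 ± 0.79 SE, adjusted p = 0.0112, limma), rested on the dorsal library at 98. Without that library the log2 difference was -1.12 (adjusted p = 0.0133).

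miR-134, the member known for spine size, scored 52, 54 and 81 in dorsal and 289, 565 and 340 in lateral SVZ at P1, 6.16-fold lower (adjusted p = 2.85e-06, limma). At P6 it scored 91 to 184 against 466, 785 and 468, 4.02-fold lower (adjusted p = 1.51e-04, limma). All dorsal libraries lay below all lateral ones. miR-381, another dendrite-associated member, did not pass at either age: it scored 552, 1159 and 1033 in dorsal and 3469, 4851 and 209 in lateral SVZ at P1, where 1 lateral library lay below all others. At P6 it scored 1921, 1042 and 1023 against 2884, 2717 and 2861, without overlap (log2 difference -1.15 ± 0.69 SE, adjusted p = 0.283, limma).

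Among the less abundant arms, miR-376a* scored 30, 30 and 7 in dorsal and 88, 140 and 59 in lateral SVZ at P1, and 19, 56 and 26 against 121, 147 and 121 at P6. The walls did not overlap, and the log2 difference was -2.20 ± 0.56 SE at P1 and -2.05 ± 0.56 SE at P6 (adjusted p = 5.02e-03 and 9.87e-03, limma). miR-409-5p was 6.13-fold lower at P6 (adjusted p = 2.72e-06, limma).

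The 4 members that did not pass over both ages were miR-381 (log2 difference -0.98, adjusted p = 0.145, limma), miR-377 (-1.48, 0.0554), miR-412-3p (-0.87, 0.112) and miR-758 (-0.33, 0.714). Except for miR-381 these were low, with mean scores from 2.67 to 38.2 in the groups compared. miR-758 at P1 was the only tested member with a positive estimate at P1 (0.50 ± 0.76 SE). No tested member was estimated higher in dorsal SVZ at P6.

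Markers moved with the walls as well. Of 19 tested lines of neuron-enriched microRNAs (such as miR-124 and miR-128), 8 were lower in dorsal SVZ at P1, 11 at P6 and 15 over both ages, and 0 were higher. Their summed score was 105153 to 150673 in dorsal and 209317 to 367027 in lateral SVZ at P1, and 128872 to 183970 against 251799 to 417759 at P6. Among them, miR-218-2* was at 0 in all dorsal libraries at P1. Choroid plexus and multiciliated lines had 0 of 11 passing at either age, with sums that did not overlap at P6 (31033 to 35816 in dorsal and 44583 to 58083 in lateral SVZ). Of 5 tested oligodendrocyte lines, 1 was higher and 1 lower in dorsal SVZ at P1 and 2 were higher at P6, where miR-219-3p had a log2 difference of 3.79. Their sums were 763 to 1142 in dorsal and 672 to 1380 in lateral SVZ at P1, and 2796 to 3652 against 1559 to 1820 at P6. Of 5 tested microglia and leukocyte lines 2 were higher over both ages, with sums of 471 to 880 in dorsal and 292 to 1481 in lateral SVZ. Of 5 tested erythroid lines 1 was higher at P1 and 0 passed at P6. Their sums were 3938 to 4947 in dorsal and 1590 to 2635 in lateral SVZ at P1, and 1742 to 5201 against 1643 to 2074 at P6. Beside these counts, 20.7% of all tested lines were lower and 1.73% higher in dorsal SVZ at P1. At P6 17.6% were lower and 2.73% higher, and over both ages 26.9% were lower and 3.72% higher. tRNA lines held 10.3% to 16.4% of the score in dorsal and 5.31% to 11.7% in lateral SVZ. The part of these in the wall difference was not tested, and in dissected tissue fewer cells of a type and less RNA per cell cannot be told apart.

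**Figure D3:**
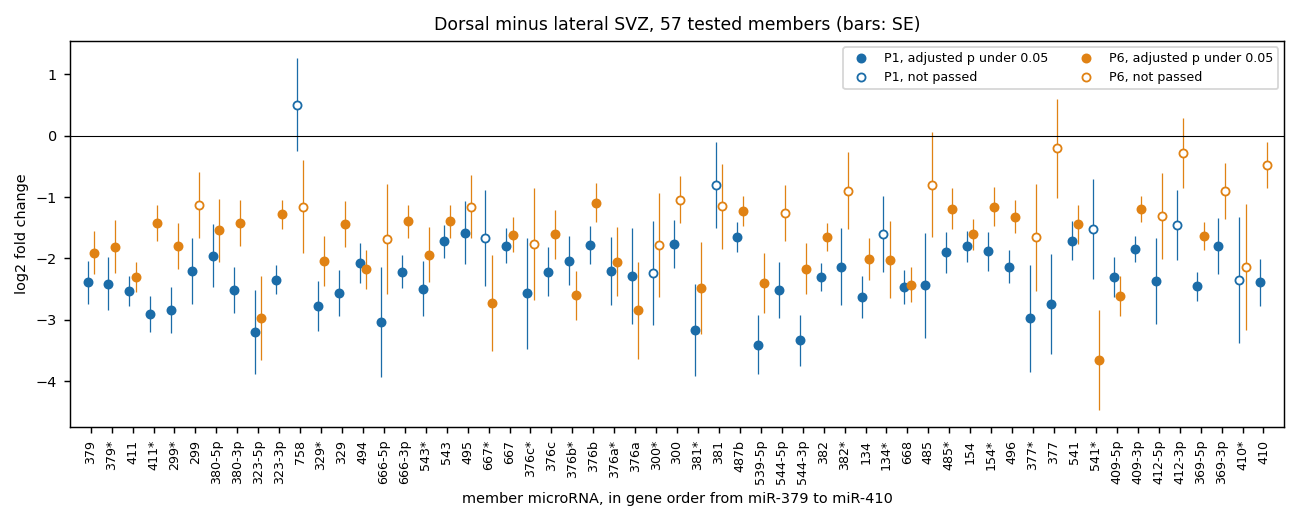
Log2 difference of dorsal minus lateral SVZ (vertical axis; bars are SE) of the 57 tested members, in the order of their genes from miR-379 to miR-410, at P1 (blue) and P6 (orange); filled points passed an adjusted p of 0.05. All points but miR-758 at P1 lie below 0, along the whole run.

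The second comparison followed the walls from P1 to P6. In dorsal SVZ 29 of the 57 tested members were higher at P6, 0 were lower and 28 did not pass, where 20.8% of all tested lines passed, 20.0% higher and 0.867% lower. The median log2 difference was 1.34, against 0.54 for all lines. In lateral SVZ 10 were higher, 0 lower and 47 did not pass, where 16.5% of all lines passed, 14.4% higher and 2.11% lower, with a median of 0.73 against 0.42. The lateral share of passing members was thus near that of all lines. Without dorsal SVZ P1 replicate 1 the dorsal count was 19. The lateral count was 4 without P1 replicate 3 or P6 replicate 2, 6 without P1 replicate 1 or P6 replicate 1, and 17 without P1 replicate 2. With values taken relative to the median microRNA of a library, the split became 15 higher and 1 lower in dorsal SVZ and 3 higher and 2 lower in lateral SVZ. On that scale all tested lines gave 70 higher and 97 lower in dorsal SVZ and 46 higher and 100 lower in lateral SVZ.

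miR-323-3p, miR-369-5p, miR-382, miR-487b, miR-544-3p, miR-666-3p, miR-667 and miR-668 passed in both walls. The lateral call of miR-323-3p was lost in 10 of 17 alternatives, with a log2 difference down to 0.14 (adjusted p up to 0.714, limma). That of miR-544-3p was lost in 4, that of miR-382 in 2, and those of miR-487b and miR-666-3p in 0. miR-666-3p scored 243, 312 and 314 in dorsal SVZ at P1 and 1382, 2165 and 1382 at P6, and rose 5.56-fold (log2 difference 2.48 ± 0.27 SE, adjusted p = 6.51e-07, limma). In lateral SVZ it scored 1642, 962 and 1515 at P1 and 4594, 4650 and 3542 at P6, and rose 3.16-fold (1.66 ± 0.27 SE, adjusted p = 1.48e-04, limma). The ages did not overlap in either wall.

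miR-544-3p rose 6.95-fold in dorsal SVZ, from 28, 60 and 56 to 480, 364 and 192, and 3.10-fold in lateral SVZ, from 481, 780 and 274 to 1079, 1857 and 1539 (adjusted p = 3.04e-05 and 9.61e-03, limma). miR-487b rose 3.92-fold in dorsal and 2.94-fold in lateral SVZ (adjusted p = 4.33e-06 and 1.11e-04, limma). The ages of both members did not overlap in either wall, but the lateral call of miR-544-3p was lost without P1 replicate 3 (adjusted p = 0.0767) or P6 replicate 2 (0.0583). miR-666-5p, the other arm of the miR-666 hairpin, was low and scattered: it scored 2, 27 and 0 in dorsal SVZ at P1 and 76, 70 and 9 at P6. These overlapped, and the rise (log2 difference 3.12 ± 0.90 SE, adjusted p = 0.0149, limma) did not pass in 8 of 17 alternative analyses, among them those without dorsal SVZ P1 replicate 1 or 3 or P6 replicate 1 or 2 (adjusted p from 0.0692 to 0.107).

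The members did not all move with age. miR-411 had a log2 difference of 0.31 ± 0.24 SE in dorsal and 0.07 ± 0.24 SE in lateral SVZ, and miR-494 of -0.42 ± 0.32 SE and -0.31 ± 0.32 SE, none of which passed. For miR-494 all 3 dorsal libraries at P6 (240, 234 and 248) lay below those at P1 (251, 292 and 454). miR-494 and miR-411 were nevertheless among the members with a wall difference at both ages.

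The miR-411 hairpin also changed the balance of its arms. miR-411* rose 4.56-fold in dorsal SVZ (log2 difference 2.19 ± 0.29 SE, adjusted p = 9.03e-06, limma), and its share of the miR-411 and miR-411* scores went from 10.7% to 15.9% at P1 up to 26.8% to 44.9% at P6. In lateral SVZ this share was 14.0% to 16.3% at P1 and 17.4% to 25.9% at P6. miR-379*, which has the same seed, held 8.26% to 12.9% of its hairpin's score in dorsal SVZ at P1 and 13.3% to 21.9% at P6. The ages did not overlap in these 3 sets, which were picked after their values were seen. miR-379* and miR-411* differ at 2 of 22 bases, so they may share reads. The less abundant arm had a higher, non-overlapping share at P6 for 2 of 24 member hairpins in dorsal and 3 of 24 in lateral SVZ. This was near the 7.14% and 9.34% of all 182 hairpins with both arms tested.

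The wall difference was tested for a change with age. In the interaction of wall and age 0 of the 57 members passed (limma), where 0.248% of all lines passed. An unadjusted p under 0.05 was reached by 9 members, all with a smaller wall difference at P6, and by 71 of the 807 tested lines. With TMM factors 3 members passed, relative to the median microRNA 1 passed, and in every analysis without 1 library 0 passed. Across all tested lines, 8 were higher and 3 lower with TMM factors, and 3 higher and 2 lower relative to the median microRNA. The lowest adjusted p, 0.17, was that of miR-410, the last member of the run. It scored 117 ± 36.1 (SD, n = 3) in dorsal and 531, 1065 and 373 in lateral SVZ at P1, then 876, 648 and 399 against 932, 925 and 708 at P6. The walls did not overlap at P1 and overlapped at P6, with log2 differences of -2.39 ± 0.38 SE and -0.48 ± 0.38 SE. The median interaction of the members was 0.65, against 0.22 for all lines.

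Markers changed with age too. Choroid plexus and multiciliated microRNAs, such as miR-34b, miR-34c and miR-449a, were higher at P6 for 7 of 11 tested lines in dorsal and 8 of 11 in lateral SVZ, with sums of 5118 to 8865 at P1 against 31033 to 35816 at P6 in dorsal and 6747 to 7558 against 44583 to 58083 in lateral SVZ. Of the list, miR-211* was at 0 in all SVZ libraries. Neuron-enriched lines were higher for 8 and lower for 1 of 19 in each wall. Beside these counts, 20.0% of all tested lines were higher and 0.867% lower in dorsal SVZ, and 14.4% and 2.11% in lateral SVZ. The part of these markers in the age differences was not tested.

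**Figure D4:**
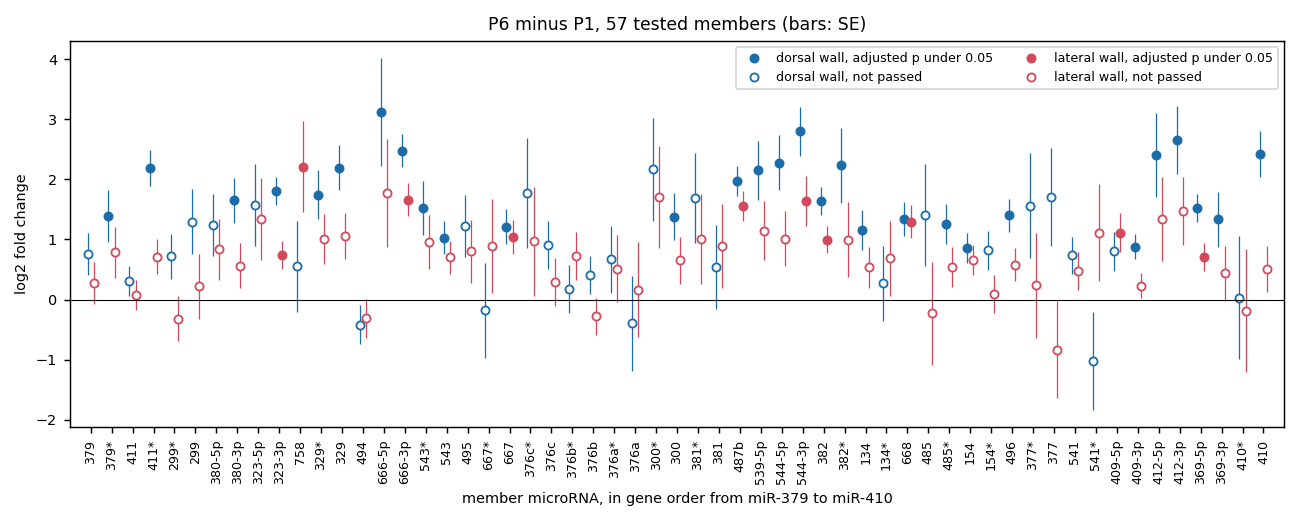
Log2 difference of P6 minus P1 (vertical axis; bars are SE) of the 57 tested members in gene order, in dorsal (blue) and lateral (red) SVZ; filled points passed an adjusted p of 0.05. The 29 filled points of the dorsal wall and the 10 of the lateral wall all lie above 0.

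The third comparison set the OB, where the young neurons settle, against the RMS, through which they migrate, with age as a term in the fit. Of the 57 tested members 5 were higher in OB, 2 were lower and 50 did not pass. Over all tested lines 31.4% passed, 24.3% higher and 7.06% lower. The median was 0.47, against 0.55 for all lines. The split depended on the scaling: with TMM factors 0 members were higher and 8 lower, and relative to the median microRNA 0 were higher and 19 lower. The lone RMS library at P15 entered the fit with the spread of the other groups. Left out, it gave 3 passing members, and 1 member passed without OB P28 replicate 3, 2 without RMS P28 replicate 2 or OB P28 replicate 1, 3 without OB P15 replicate 3 and 4 without OB P15 replicate 1.

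The 2 lower members were the arms of the miR-154 hairpin. miR-154* scored 1799 in RMS at P15, 2286 and 1501 in RMS at P28, 1147, 995 and 1143 in OB at P15 and 1052, 1029 and 932 in OB at P28. All OB libraries lay below all RMS libraries (log2 difference -0.82 ± 0.27 SE, adjusted p = 0.0249, limma), and the adjusted p ran from 2.60e-06 to 0.124 over the alternatives, missing the threshold without the RMS library at P15, RMS P28 replicate 1 or OB P28 replicate 3 and in the fit with no mean-variance trend (0.0523). miR-154 scored 1283 in RMS at P15, 2525 and 2010 in RMS at P28, 1285, 1084 and 1003 in OB at P15 and 1374, 1161 and 1170 in OB at P28. The tissues overlapped (-0.61 ± 0.23 SE, adjusted p = 0.0462, limma), and the call did not hold in 10 of 20 alternatives, 7 of which leave out 1 library.

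The 5 higher members were miR-382*, miR-543*, miR-299*, miR-376b* and miR-409-5p, all of them the less abundant named form of their hairpin except miR-299*. miR-382* scored 15 in RMS at P15 and 33 and 20 at P28, against 55 to 67 in OB at P15 and 57 to 65 at P28. miR-543* scored 37 in RMS at P15 and 50 and 30 at P28, against 90 to 106 and 56 to 101 in OB. Neither overlapped between the tissues, with log2 differences of 1.49 ± 0.54 SE and 1.17 ± 0.39 SE (adjusted p = 0.0391 and 0.0253, limma). miR-299* had a difference of 1.14 ± 0.33 SE (adjusted p = 0.0112, limma) and overlapped. None of these 3 passed without the RMS library at P15 (adjusted p = 0.222, 0.144 and 0.143) or with TMM factors (adjusted p = 0.145, 0.0935 and 0.0638), and miR-382* was lost in 11 of 20 alternatives, including each analysis without 1 OB library (adjusted p from 0.0513 to 0.0629) and that without RMS P28 replicate 2 (0.111). miR-543* was lost in 6 of 20 and miR-299* in 3 of 20. miR-376b* was lost in 13 of 20, with a log2 difference down to 0.07 (adjusted p up to 0.895, limma). miR-409-5p was lost in 9 of 20, and in 1 more, relative to the median microRNA, it turned to -0.080.

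Within the OB, 0 of the 57 tested members differed between P28 and P15 (limma), where 0.743% of all lines passed, 0.62% higher and 0.124% lower. An unadjusted p under 0.05 was reached by 2 members, both lower at P28, and by 115 of the 807 tested lines. With TMM factors 1 member was lower, where 4 of all tested lines were higher and 8 lower. With only the OB libraries in the fit 1 member was lower. The lowest adjusted p, 0.274, was that of miR-409-3p, which scored 3790, 3483 and 3817 at P15 and 2840, 2415 and 2655 at P28. These did not overlap, and the log2 difference was -0.49 ± 0.21 SE. Libraries at P28 lay below those at P15 without overlap for 8 members and above for 1, against 6.82% and 24.2% of all tested lines.

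Mesenchymal and endothelial markers moved with the OB. All 4 tested mesenchymal and meningeal lines were higher in OB than in RMS, with sums of 263 to 608 in RMS and 777 to 2214 in OB, and 4 of 5 tested endothelial and mural lines were higher, with sums of 11987 to 15655 in RMS and 27381 to 41753 in OB. In RMS, miR-214* and miR-199b were at 0 in all libraries. Of 11 choroid plexus and multiciliated lines 5 were lower and 1 higher in OB, and of 19 neuron-enriched lines 3 were higher and 3 lower. Erythroid, microglia and leukocyte, and oligodendrocyte lines each had 2 of 5 higher and 0 lower. Of all tested lines 24.3% were higher and 7.06% lower. The part of these in the member values was not tested.

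The last comparison set OB at P15 against the mean of both SVZ walls at P6, in which tissue and age cannot be told apart. Of the 57 tested members 11 were higher in OB, 2 were lower and 44 did not pass, where 35.9% of all lines passed, 21.7% higher and 14.3% lower. Without OB P15 replicate 1 or replicate 3, 7 members passed. The median was 0.55, against 0.26 for all lines. Relative to the median microRNA 4 members were higher and 6 lower, where 112 of all tested lines were higher and 195 lower. Since the walls differ, a member could be higher in OB than their mean and yet lie within or below the lateral wall. miR-411 did so, with 1703, 1546 and 1778 in OB against 2518, 2283 and 1850 in lateral and 364 to 497 in dorsal SVZ. For 1 of the 57 members, miR-666-3p, all 3 OB libraries (5843, 5884 and 5202) lay above all 6 SVZ libraries, against 18.3% of all tested lines, and for 0 they lay below, against 12.1%. miR-666-3p was 2.16-fold higher in OB (log2 difference 1.11 ± 0.23 SE, adjusted p = 7.40e-04, limma).

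Among members that passed with a mean score of at least 50 in OB, the largest rises were those of miR-323-5p, miR-376b* and miR-329*. miR-376b* scored 286, 227 and 378 in OB at P15, 35, 85 and 27 in dorsal and 284, 270 and 248 in lateral SVZ at P6, with a log2 difference of 1.42 ± 0.35 SE (adjusted p = 2.55e-03, limma). miR-329* scored 317, 213 and 336 in OB, 66, 74 and 29 in dorsal and 243, 195 and 219 in lateral SVZ, with 1.40 ± 0.36 SE (adjusted p = 3.80e-03, limma). In both the OB libraries overlapped the lateral wall and lay above the dorsal wall. miR-323-5p (1.66 ± 0.59 SE, adjusted p = 0.0330, limma) did not pass in 8 of 20 alternatives, 6 of which leave out 1 library. miR-376a* (189, 83 and 217 in OB) also passed, with 1.25 ± 0.48 SE (adjusted p = 0.0485, limma), overlapped the lateral wall and was lost in 11 of 20 alternatives, 7 of which leave out 1 library.

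The 2 lower members were miR-154* and miR-376b. miR-154* scored 1147, 995 and 1143 in OB, 2249, 1137 and 1126 in dorsal and 2629, 3598 and 3362 in lateral SVZ, so that OB overlapped the dorsal wall (log2 difference -0.96 ± 0.27 SE, adjusted p = 8.95e-03, limma). miR-376b scored 2268, 2155 and 2454 in OB, 4691, 1888 and 1900 in dorsal and 5960, 5202 and 5230 in lateral SVZ, with the same overlap (-0.71 ± 0.27 SE, adjusted p = 0.0451, limma). The call for miR-154* held in all 20 alternatives run, and that for miR-376b was lost in 9 of 20, 7 of which leave out 1 library.

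Markers moved strongly in the same comparison. Of 11 tested choroid plexus and multiciliated lines 8 were lower and 3 higher in OB, with sums of 7462 to 8646 in OB against 31033 to 35816 in dorsal and 44583 to 58083 in lateral SVZ at P6, and miR-211* and miR-449b were at 0 in all OB libraries at P15. Of 19 neuron-enriched lines 10 were higher and 2 lower, with sums of 606269 to 649138 against 128872 to 183970 and 251799 to 417759. All 4 mesenchymal and meningeal lines were higher (777 to 1591 against 261 to 421 and 154 to 321), as were 4 of 5 endothelial and mural lines (27381 to 32364 against 15032 to 21179 and 14359 to 18952). Beside these counts, 21.7% of all tested lines were higher and 14.3% lower in OB. The part of these markers in the member values was not tested.

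In both hairpins the ratio of the arms was closer to even in OB at P15 than in SVZ at P6. miR-154 held 46.7% to 52.8% of the miR-154 and miR-154* scores in OB at P15, against 20.8% to 36.0% in SVZ at P6. It held 17.8% to 29.0% in SVZ at P1, 41.6% in RMS at P15, 52.5% and 57.3% in RMS at P28, and 53.0% to 56.6% in OB at P28. All 12 SVZ libraries lay below all RMS and OB libraries. The share of miR-376b* in its hairpin was 9.53% to 13.4% in OB at P15 and 0.741% to 4.93% in SVZ at P6, 2.71% in RMS at P15, 10.4% and 15.6% in RMS at P28, and 18.1% to 22.5% in OB at P28. Here the lone RMS library at P15 fell within the SVZ range.

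Counted over the 24 member hairpins with both arms tested, the share of the less abundant arm was higher in OB at P15 than in all SVZ libraries at P6 for 5 (miR-154, miR-376b*, miR-543*, miR-485 and miR-380-5p) and lower for 1 (miR-299), against 9.89% and 3.30% of all 182 hairpins. Between OB and RMS it was higher without overlap for 2 (miR-543* and miR-382*) and lower for 1 (miR-412-3p), against 10.4% and 1.10% of all. Between dorsal and lateral SVZ over both ages it did not separate for any of the 24, against 0.0% and 1.10% of all. These counts are descriptions without a test, and the pairs were named after their values were seen.

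**Figure D5:**
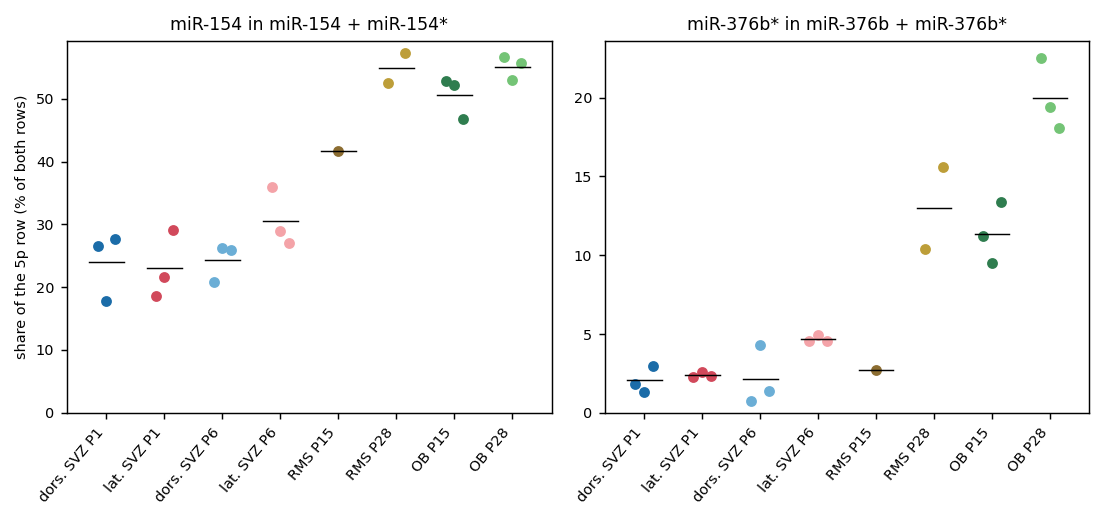
Share of the 5p form in the summed score of both forms of a hairpin (vertical axes, %) in each library (points) with the group mean (line), for miR-154 (left) and miR-376b* (right). The share of miR-154 is 17.8% to 36.0% in the SVZ libraries and 41.6% to 57.3% in RMS and OB.

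The rest of the locus was counted in the same way. The microRNAs of the upstream group, which lie between Dlk1 and miR-379 and include miR-127, miR-136, miR-337, miR-433 and miR-434, had 21 of 30 lines tested. In dorsal SVZ 19 of 21 were lower at P1, 17 at P6 and 21 over both ages, with medians of -2.35, -1.70 and -2.05, where 20.7%, 17.6% and 26.9% of all tested lines were lower. miR-127, which is antisense to Rtl1, was 5.97-fold lower at P1 and 4.54-fold lower at P6 (adjusted p = 1.48e-07 and 2.29e-06, limma). From P1 to P6, 15 of 21 were higher in dorsal SVZ, against 20.0% of all lines, and 4 of 21 in lateral SVZ, near the 14.4% of all lines. In OB, 1 of 21 was higher than in RMS, against 24.3% of all lines, 0 passed between P15 and P28, and 8 were higher at P15 than in SVZ at P6, against 21.7% of all lines. As a share of the mature score, the upstream group held 0.245% to 0.302% in dorsal SVZ at P1 and 1.28% to 1.37% in lateral SVZ at P6.

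The hairpin lines of the members, a separate set of 33 lines of which 17 were tested, had the same direction at lower scores. In dorsal SVZ 10 of 17 were lower at P1, 8 at P6 and 11 over both ages. Of all tested lines 20.7%, 17.6% and 26.9% were lower. From P1 to P6, 5 of 17 were higher in dorsal SVZ, against 20.0% of all lines. In lateral SVZ 3 of 17 were higher, near the 14.4% of all lines. In each of these, 0 passed in the opposite direction. The most abundant, that of miR-382, had group means from 232 in dorsal SVZ at P1 to 1772 in lateral SVZ at P6. How reads were divided between hairpin and mature lines is not given in the sources used here, so the hairpin lines may share reads with the members.

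The 7 lines of miR-1193, miR-1197, miR-654 and miR-3072 had 4 tested. Of these 3 were lower in dorsal SVZ at P1, 2 at P6 and 3 over both ages, with 0 higher. The medians were -2.30, -1.75 and -2.03. Of all tested lines 20.7%, 17.6% and 26.9% were lower. From P1 to P6, 2 of 4 were higher in dorsal and 0 in lateral SVZ, against 20.0% and 14.4% of all lines. Between OB and RMS, in OB with age, and between OB at P15 and SVZ at P6, 0 passed. Of all lines 31.4%, 0.743% and 35.9% passed in these.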

How the data were processed

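Small RNA of 21 dissected tissue libraries, with fragments of 15 to 50 bp gel purified before sequencing on a SOLiD 5500XL machine per the labels' protocols, was taken from the 1 table the authors deposited. Its values are a score, a normalized read number that the authors rounded to whole numbers. Per the submitters' processing notes, the tools were Bowtie and DESeq and the build mm9, and their settings are not given in the sources used here. Every library follows nearly the same distribution of values times a factor, so the totals of 2943373 to 3467000 are not read depths. Since the depth is unknown, neither counting intervals nor count models were applied.

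Values were analysed as log2(score + 1), a scale that can understate changes of low members but is steep where single libraries stand close to 0. The 8 group means were estimated in 1 linear fit across the 807 microRNA lines with a score of at least 10 in at least 3 libraries (limma 3.58.1 with a mean-variance trend, R 4.3.3), leaving 13 residual degrees of freedom. OB against RMS used tissue and age as additive terms, leaving 14. Tests were two-sided, Benjamini-Hochberg adjusted over all tested lines, and passed under 0.05. The fitting code was tested on simulated data. Fold changes are those of log2(score + 1), and mean ± SD refers to libraries.

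Members described with values were the 12 with the highest mean, the other arm of their hairpins where its mean was at least 50, the 3 largest passing changes per comparison and direction (higher group mean 50 or more), and each member passing against the majority. miR-411, miR-494, miR-134, miR-410, miR-379* and miR-127 were added after their values were seen. The members, lists and comparisons were chosen with earlier results of these data known. Marker lists came from textbook knowledge and from such earlier work. Genes were ordered by the RefSeq annotation of another build than the one the submitters name, so no coordinates are given.

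Alternatives were TMM factors (trimmed mean of M values, computed on the deposited scores), centring on the median microRNA, division by the library factor, a pseudocount of 10, a minimum of 50, no filter, no trend, only the compared groups, a replicate block, and leaving out each library in turn. The replicate numbers are not stated to pair the samples. Deviations of same-numbered dorsal and lateral libraries correlated at 0.0128 to 0.0791 by title number. By the numbers in the sample descriptions they correlated at 0.00684 to 0.0791, and libraries of different title numbers at -0.0789 to 0.0248. Each dorsal library correlated highest with the lateral library of its title number, but weakly, so whether they pair was not settled.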

Additional observations from a re-analysis of the deposited data

How the results depend on the processing

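The lower level of the members in dorsal SVZ kept its direction in every alternative, with 0 members higher. Leaving out 1 library gave 40 to 50 passing members at P1, 32 to 38 at P6 and 51 to 55 over both ages. With only the compared groups in the fit, 38 passed at P1, 32 at P6 and 48 over both ages. The block fits used only these groups as well. A replicate block on the title numbers gave 32 at P1, 20 at P6 and 51 over both ages. A replicate block on the numbers in the sample descriptions gave 0 at P1, 0 at P6 and 22 over both ages. These numbers share no stated animal or day, and whether they pair the samples was not settled. The block fits left fewer residual degrees of freedom than the main fit, and why calls were lost under them was not tested. For P6 against P1 in dorsal SVZ the count was 16 relative to the median microRNA, 11 with only the compared groups, 0 with the replicate block on title numbers, and 19 to 32 with 1 library left out. It was 19 without both libraries of lowest microRNA share, dorsal SVZ P1 replicate 1 and dorsal SVZ P6 replicate 2, an alternative chosen after seeing the data. For lateral SVZ it was 5 with TMM factors, 5 relative to the median microRNA, 5 with only the compared groups, 6 with the replicate block, and 4 to 17 with 1 library left out. In both age comparisons the block joined libraries of P1 and P6 that share a title number, a pairing that the labels do not state. The interaction gave 3 with TMM factors and 1 relative to the median microRNA, and OB at P28 against P15 gave 1 with TMM factors and 1 with only the compared groups. OB against RMS gave 19 relative to the median microRNA, 3 without the filter, 3 without the trend, 11 with only the compared groups, and 1 to 6 with 1 library left out. OB at P15 against SVZ at P6 gave 7 to 16 with 1 library left out. Relative to the median microRNA miR-409-5p turned from higher to -0.080 in OB against RMS (adjusted p = 0.847, limma). Over the named members 1473 of the alternative values kept their direction and side of the threshold, 244 lost the threshold and 1 turned. The cause was not tested. Centring on the median microRNA moved the median of all lines between OB and RMS from 0.55 to -0.31 and in the wall comparison over both ages from -0.30 to 0.22, so the calls in OB against RMS are relative to the scaling, while the members stayed lower in dorsal SVZ. Low members are limited by their scatter and by an unknown depth.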
